A study of Mus musculus with 12 samples.

Results

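The transcripts of 9 growth arrest genes, *Cdkn1a*, *Wee1*, *Gadd45a*, *Gadd45b*, *Gadd45g*, *Mdm2*, *Ccng1*, *Ccnd1* and *Btg2*, were followed in liver, in wild-type and in *Rev-erbα*-/- mice. They were chosen by symbol from the 38926 gene symbols counted, and all 9 were among the 14488 genes that passed the filter on low counts. RNA was sequenced in 12 liver libraries from mice of 12 weeks of age on a mixed 129Ola/C57BL6 background. The 4 groups were wild-type at ZT8, *Rev-erbα*-/- at ZT8, wild-type at ZT20 and *Rev-erbα*-/- at ZT20, with 3 libraries in each and no further treatment given in the labels (ZT, zeitgeber time, counts the hours from lights on). The knockout mice carry the mutation in every tissue and from conception, and came from heterozygous breeding pairs. Values are counts scaled to the library size (CPM) and are given per library in the order of replicates 1, 2 and 3.

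REV-ERBα is the product of *Nr1d1*. This nuclear receptor represses transcription from response elements that it shares with the ROR receptors (ROREs), and it belongs to the circadian clock. Its target *Arntl* encodes BMAL1, which pairs with CLOCK to drive transcription from E-box elements such as CACGTG. The cell cycle is held by inhibitors at its main steps. *Cdkn1a* encodes p21, which blocks cyclin-dependent kinases (CDKs) before DNA replication and is a known target of both p53 and REV-ERBα. *Wee1* encodes a kinase that holds CDK1 inactive before mitosis and is a known E-box target of CLOCK and BMAL1. The *Gadd45* genes encode small stress sensors, *Mdm2* encodes the ubiquitin ligase of p53, and *Ccng1* encodes cyclin G1. *Mdm2* and *Ccng1* are induced by p53 in many tissues and were used here as a readout of p53. *Ccnd1* encodes cyclin D1, which drives cells into the cycle, and *Btg2* encodes an antiproliferative protein that p53 also induces. Most hepatocytes of an adult liver are at rest, so that these transcripts were measured in a tissue with little division.

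The promoter windows below carry letters that match motifs for p53 or for clock and nuclear receptor factors. The matches were found by search, and whether any of them is a known site of its gene was not checked. The RefSeq table (GRCm38.p6) held windows of 300 bases, 250 of them before the transcription start, for 7 of the 9 members, with 2 windows for *Cdkn1a*. *Wee1* and *Ccnd1* have no entry in it. Capitals mark a decamer that fits the consensus of which a p53 response element holds a pair, in *Cdkn1a*, *Mdm2* and *Ccng1*, the E-box CACGTG in *Gadd45b* and *Gadd45g*, and the nuclear receptor core element AGGTCA, read on the other strand, in *Btg2*. Each sequence runs 5′ to 3′ on the strand of its gene.
*Cdkn1a*, chr17:29090729-29090975, plus strand: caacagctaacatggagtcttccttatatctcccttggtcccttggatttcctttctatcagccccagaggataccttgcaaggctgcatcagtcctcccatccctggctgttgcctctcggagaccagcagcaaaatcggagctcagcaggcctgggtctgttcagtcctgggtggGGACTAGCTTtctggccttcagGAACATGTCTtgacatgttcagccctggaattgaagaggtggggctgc
*Mdm2*, chr10:117710905-117710974, minus strand: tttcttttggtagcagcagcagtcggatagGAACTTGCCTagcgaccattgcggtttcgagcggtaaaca
*Ccng1*, chr11:40755432-40755501, minus strand: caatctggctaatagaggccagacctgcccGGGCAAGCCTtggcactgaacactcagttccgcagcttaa
*Gadd45b*, chr10:80929876-80929941, plus strand: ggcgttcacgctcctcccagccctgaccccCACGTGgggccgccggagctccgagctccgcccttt
*Gadd45g*, chr13:51846503-51846568, plus strand: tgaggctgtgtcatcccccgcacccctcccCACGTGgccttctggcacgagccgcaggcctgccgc
*Btg2*, chr1:134079270-134079335, minus strand: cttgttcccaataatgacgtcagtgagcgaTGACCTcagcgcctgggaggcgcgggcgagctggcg

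The first *Cdkn1a* window, with its start at 29090979, held 2 matches to the p53 consensus. They began 73 and 51 bases before that start, and whether they form a pair was not tested. The second window, with its start at 29093769, held none of the motifs searched. The matches began 186 bases before the start in *Mdm2* and 185 bases before it in *Ccng1*. *Gadd45a* held the match GGGCTAGCCC, which began 40 bases before its RefSeq start. A match to this consensus occurred in 8.36% of 32851 mouse promoter windows of this length. CACGTG began 185 bases before the start of *Gadd45b* and 142 bases before that of *Gadd45g*, and occurred in 7.15% of all windows. AGGTCA, searched on both strands, began 150 bases before the start of *Btg2* and occurred in 16.3% of windows. The RORE consensus, a palindromic glucocorticoid receptor element GNACANNNTGTNC and the STAT element TTCNNNGAA were in none of the 8 windows, against 0.384%, 0.475% and 8.3% of all windows. AGGTCA is the core of the RORE and can lie within it. These are letters in short windows, and no binding was measured.

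The genes lie on 7 chromosomes of the mouse genome (GRCm38, GENCODE M21). *Cdkn1a* lies on chromosome 17 (29090976 to 29100727), *Wee1* and *Ccnd1* on chromosome 7 (110122046 to 110143286 and 144929931 to 144939925), *Gadd45b* and *Mdm2* on chromosome 10 (80930073 to 80932204 and 117688875 to 117710758). *Gadd45a* lies on chromosome 6 (67035096 to 67037457), *Gadd45g* on chromosome 13 (51846678 to 51848468), *Ccng1* on chromosome 11 (40748552 to 40755311) and *Btg2* on chromosome 1 (134075170 to 134079120). Values are sums over all exons of a symbol. Exons of *Cdkn1a*, *Wee1*, *Gadd45a* and *Ccnd1* overlap an annotated gene on the opposite strand (AC167363.2, 1600010M07Rik, E230016M11Rik and LTO1), and counting ignored the strand. E230016M11Rik and LTO1 (as Oraov1) are among the counted symbols, and union mode drops reads that fall on such a pair. For the other pairs, reads of both genes cannot be told apart in the shared stretches.

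Between 17641809 and 26060192 reads were counted on genes per library, so that 3 counts stood for 0.117 to 0.167 CPM. Alignments that were not unique stood at 1.76 to 3.28 per counted read in the libraries at ZT8. At ZT20 they stood at 1.24 to 1.67, without overlap between the times. Their part in the comparisons of times was not tested. No replicate pair agreed within sampling noise (chi-square over degrees of freedom of 7.53 to 141), and all 12 libraries were used as separate samples. Reads were still counted on *Nr1d1* in the *Rev-erbα*-/- libraries (63.0, 71.9 and 80.6 CPM at ZT8, against 128.7, 96.2 and 75.3 in wild-type), with a log2 fold change of −0.48 that missed the threshold (adjusted p = 0.143, edgeR). The symbol sum therefore does not check the genotype labels. *Arntl*, chosen as a check after its values were seen, was at 0.652 ± 0.181 CPM in wild-type and 24.2 ± 1.52 CPM in the knockout at ZT8 (SD, n = 3, adjusted p = 2.2e-12, edgeR). At ZT20, *Arntl* was at 44.3 ± 1.13 CPM in wild-type and 43.7 ± 2.25 CPM in the knockout. *Nr1d1* stood there at 2.09 ± 0.216 and 2.87 ± 0.743 CPM. Neither gene therefore checks the genotype labels of the libraries at ZT20. Hepatocyte markers summed to between 57802 and 107876 CPM in the 12 libraries. Of 39 tested markers of 8 liver and blood cell types, 1 was called between genotypes at ZT8, the cholangiocyte marker *Sox9* (log2 fold change 1.20, edgeR adjusted p = 0.00126), and 0 at ZT20. Over all genes, edgeR called 8.45% at ZT8 and 3.63% at ZT20. At an unadjusted p below 0.05, 13 and 8 of the 39 markers passed (23.5% and 14.6% of all genes did). DESeq2 called 9 and 5 of the 39 (11.5% and 4.87% of all genes). Among the libraries, wild-type replicates 2 and 3 at ZT8 stood apart with high acute phase transcripts, and results that rest on them are given with and without them. In whole liver, fewer cells of a type and less RNA per cell cannot be told apart.

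*Cdkn1a* was almost silent in wild-type liver at ZT8, with 2.83, 2.69 and 1.93 CPM. In *Rev-erbα*-/- liver at ZT8 it stood at 28.3, 32.4 and 42.6 CPM. At ZT20 it was at 40.0, 47.7 and 56.6 CPM in wild-type and at 24.4, 30.3 and 36.9 CPM in *Rev-erbα*-/-. The 3 wild-type libraries at ZT8 therefore lay apart from the other 9, and no library outside that group fell below 24 CPM. The highest group was wild-type at ZT20 (48.1 ± 8.32 CPM), followed by *Rev-erbα*-/- at ZT8 (34.4 ± 7.34) and *Rev-erbα*-/- at ZT20 (30.5 ± 6.28), and neighbours in this order overlapped. The low group averaged 2.48 ± 0.482 CPM.

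*Wee1* showed the mirror image. Wild-type liver at ZT8 had 14.8, 14.7 and 13.5 CPM, and *Rev-erbα*-/- liver at ZT8 had 4.99, 4.17 and 7.88 CPM. At ZT20, *Wee1* was at 6.23, 5.79 and 6.49 CPM in wild-type and at 6.51, 6.43 and 6.09 CPM in *Rev-erbα*-/-. The wild-type livers at ZT8 were the high group without overlap, and the other 9 libraries lay between 4.17 and 7.88 CPM with no separation of the groups. Across the 12 libraries, log2 CPM of *Cdkn1a* and *Wee1* had a Pearson r of −0.889, a description that rests on the 3 wild-type livers at ZT8.

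**Figure D1:**
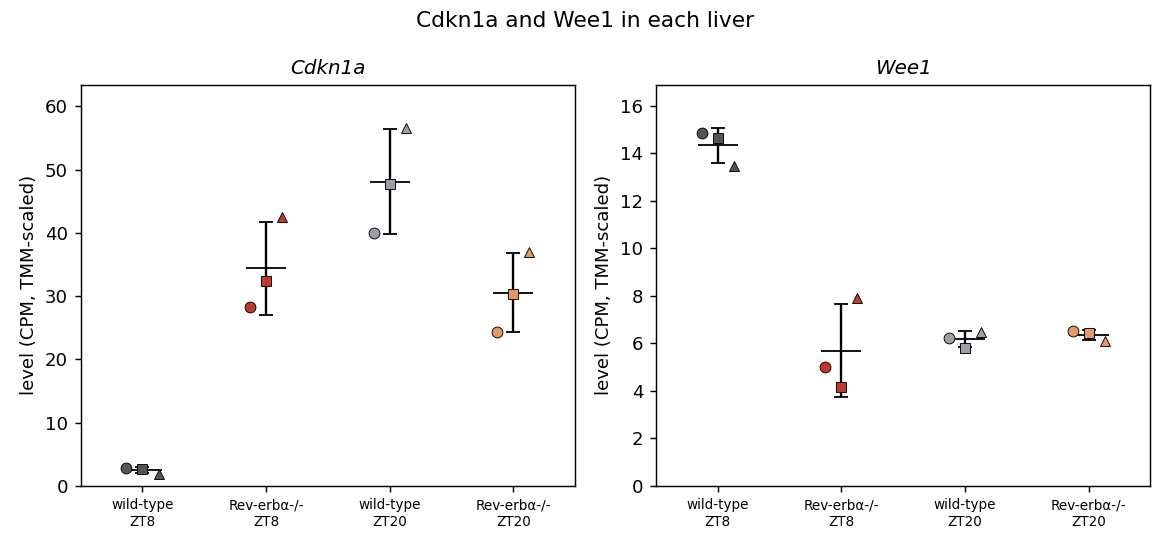
CPM of *Cdkn1a* and *Wee1* in each library (circle, square and triangle for replicates 1, 2 and 3) in the 4 groups, with bars for the mean and SD of 3. Wild-type liver at ZT8 is the low group for *Cdkn1a* (1.93 to 2.83 CPM) and the high group for *Wee1* (13.5 to 14.8 CPM).

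The comparison of genotypes at ZT8 asks what the loss of REV-ERBα changed at the time when it is abundant. In the edgeR quasi-likelihood test, 8.45% of the 14488 tested genes passed an adjusted p of 0.05, with 4.40% higher and 4.04% lower in *Rev-erbα*-/-. Of the 9 members, 1 rose and 1 fell. *Cdkn1a* was 13.7-fold higher in *Rev-erbα*-/- (log2 fold change 3.78, SE 0.24, 95% interval 3.24 to 4.32, adjusted p = 5.87e-06, edgeR). *Wee1* was 2.51-fold lower (log2 fold change −1.33, SE 0.17, 95% interval −1.69 to −0.97, adjusted p = 0.000197, edgeR). Ranked by p-value among all tested genes, they came 26th and 79th. At an unadjusted p below 0.05, 4 members passed (23.5% of all genes did), and DESeq2 called the same 4 (11.5% of all genes), with *Gadd45a* and *Gadd45g* added. The changes of *Cdkn1a* and *Wee1* passed without any single library. Without both wild-type libraries high in acute phase transcripts, replicate 1 is the only wild-type library at ZT8, and a test then assumes that it varies like the other groups. In that fit the log2 fold changes were 3.60 and −1.38.

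At ZT20, 3.63% of all tested genes passed the threshold between genotypes, with 2.09% higher and 1.54% lower, and 0 of the 9 members did. At an unadjusted p below 0.05, 2 members passed, *Cdkn1a* and *Btg2* (14.6% of all genes did), and DESeq2 called 1, *Cdkn1a* (4.87% of all genes). *Cdkn1a* did not overlap between genotypes, with a log2 fold change of −0.66 in *Rev-erbα*-/- (SE 0.19, 95% interval −1.08 to −0.24, adjusted p = 0.106, edgeR), and with DESeq2 the adjusted p was 0.0114. *Wee1* had a log2 fold change of 0.04 (95% interval −0.33 to 0.41, edgeR).

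The genotype effect was then tested for a difference between the time points. Over all genes, 5.88% passed this interaction test, with 3.05% where the effect at ZT8 was the higher one and 2.83% where it was the lower. Among the members, *Cdkn1a* (difference of log2 fold changes 4.44, SE 0.31, adjusted p = 1.34e-05, edgeR) and *Wee1* (−1.37, SE 0.24, adjusted p = 0.00318) passed. For both, the effect of genotype thus depended on the time of day.

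Between ZT8 and ZT20, wild-type liver changed in 27.7% of the tested genes, 13.8% higher and 13.9% lower at ZT20. Of the members, 4 passed. *Cdkn1a* rose 19.2-fold (log2 fold change 4.26, SE 0.24, adjusted p = 4.58e-07, edgeR), *Wee1* fell by 1.21 on the log2 scale (SE 0.17, adjusted p = 7.24e-05), and *Ccng1* and *Gadd45a* fell to a smaller extent. In *Rev-erbα*-/- liver, 17.5% of the genes changed with time, 8.79% higher and 8.67% lower at ZT20, and of the members *Ccng1* and *Mdm2* fell. *Cdkn1a* (log2 fold change −0.17, 95% interval −0.60 to 0.25, adjusted p = 0.598, edgeR) and *Wee1* (0.15, 95% interval −0.22 to 0.53, adjusted p = 0.609) did not pass there. The *Wee1* value turned on single *Rev-erbα*-/- livers at ZT8: without replicate 3 it was 0.47 (adjusted p = 0.0271, edgeR), and without replicate 2 it was −0.02. Because the wild-type livers at ZT8 enter the genotype, time and interaction comparisons alike, these values share samples. A pair of time points does not show a rhythm.

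**Figure D2:**
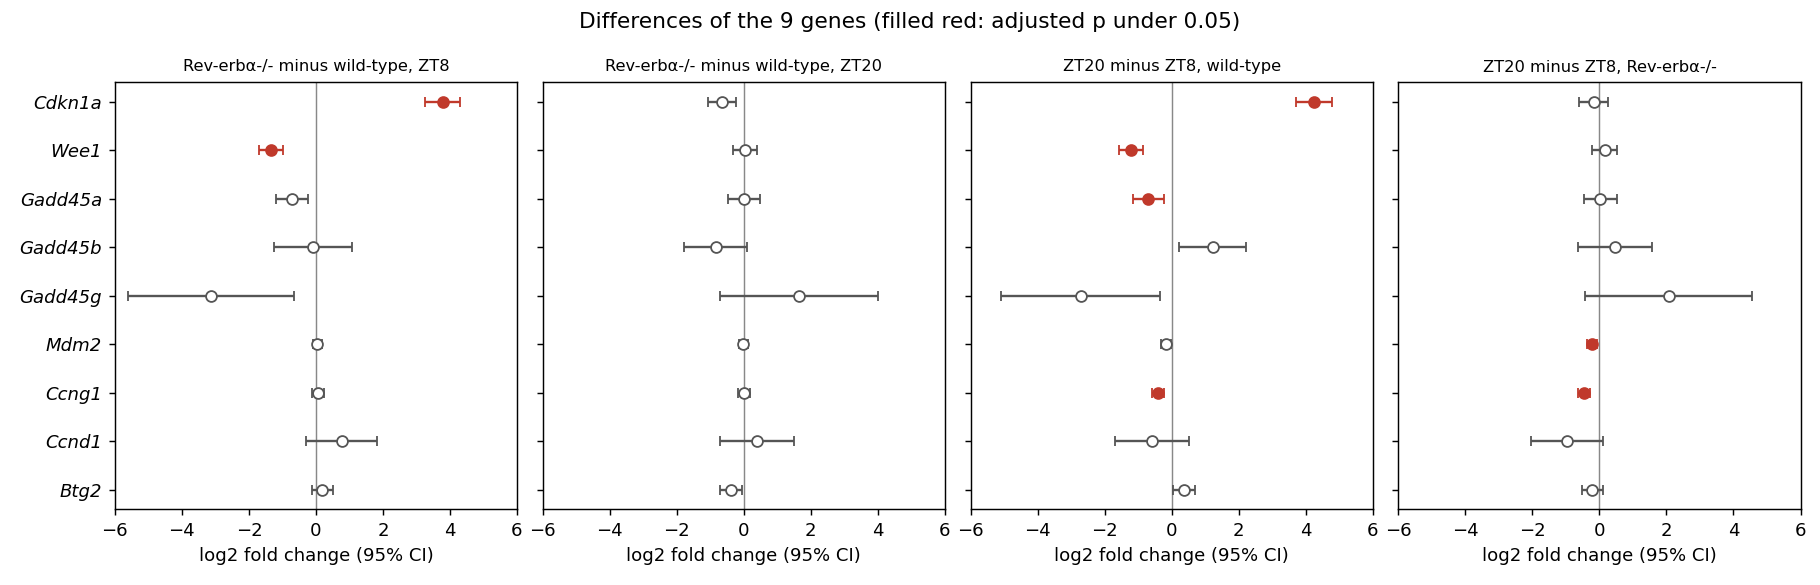
Log2 fold changes of the 9 members between genotypes at ZT8 and ZT20 and between time points within each genotype, with 95% intervals from the edgeR fit; filled red points passed an adjusted p of 0.05. *Cdkn1a* (3.78 at ZT8) and *Wee1* (−1.33 at ZT8) stand out between genotypes, and the intervals of *Mdm2* and *Ccng1* lie close to 0.

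Neither readout of p53 passed the test between genotypes. *Mdm2* was at 41.6, 43.1 and 46.0 CPM in wild-type and at 43.6, 43.8 and 47.0 CPM in *Rev-erbα*-/- at ZT8, and at 37.4, 39.5 and 39.5 CPM against 38.2, 39.0 and 38.4 CPM at ZT20. The genotypes overlapped at both times, and in each genotype all libraries at ZT20 were below all at ZT8. The log2 fold change between genotypes was 0.04 at ZT8 (SE 0.07, 95% interval −0.10 to 0.18, adjusted p = 0.764, edgeR) and −0.01 at ZT20 (95% interval −0.15 to 0.13). From ZT8 to ZT20, *Mdm2* fell by 0.22 on the log2 scale in *Rev-erbα*-/- (adjusted p = 0.0334, edgeR), while the change in wild-type was −0.17 (adjusted p = 0.0752). The difference between these changes was 0.05 (adjusted p = 0.812, edgeR), and the call in *Rev-erbα*-/- was lost in several alternatives, such as a fit on the 6 *Rev-erbα*-/- libraries alone (adjusted p = 0.0582) and the fits without replicate 2 or 3 at ZT8 or any replicate at ZT20 of that genotype.

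*Ccng1* was at 50.9, 49.8 and 47.8 CPM in wild-type and at 57.7, 50.0 and 47.1 CPM in *Rev-erbα*-/- at ZT8. At ZT20 it was at 35.0, 36.2 and 40.3 CPM and at 37.2, 37.1 and 38.5 CPM. Every library at ZT20 was below every library at ZT8, and the genotypes overlapped at each time. Between genotypes, the log2 fold change was 0.06 at ZT8 (SE 0.08, 95% interval −0.11 to 0.23, adjusted p = 0.715, edgeR) and 0.02 at ZT20 (95% interval −0.16 to 0.19). *Ccng1* fell from ZT8 to ZT20 by 0.41 in wild-type (SE 0.08, adjusted p = 0.00151, edgeR) and by 0.46 in *Rev-erbα*-/- (SE 0.08, adjusted p = 0.00149).

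*Btg2*, which p53 also induces, was at 6.53, 7.82 and 9.86 CPM in wild-type and 9.97, 9.50 and 8.13 CPM in *Rev-erbα*-/- at ZT8, and the genotypes overlapped (log2 fold change 0.19, adjusted p = 0.481, edgeR). At ZT20, 9.02, 10.5 and 11.6 CPM in wild-type stood above 8.18, 8.49 and 7.16 CPM in *Rev-erbα*-/- without overlap. That difference missed the threshold (log2 fold change −0.38, SE 0.15, 95% interval −0.70 to −0.07, adjusted p = 0.216, edgeR). The difference of the effects was 0.58 (SE 0.21, adjusted p = 0.136, edgeR), and without wild-type replicate 3 at ZT8 it was 0.75 (adjusted p = 0.0435). Without that replicate, the change with time in wild-type also passed (0.54, adjusted p = 0.0182, edgeR, against 0.37 and 0.081 with it).

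**Figure D3:**
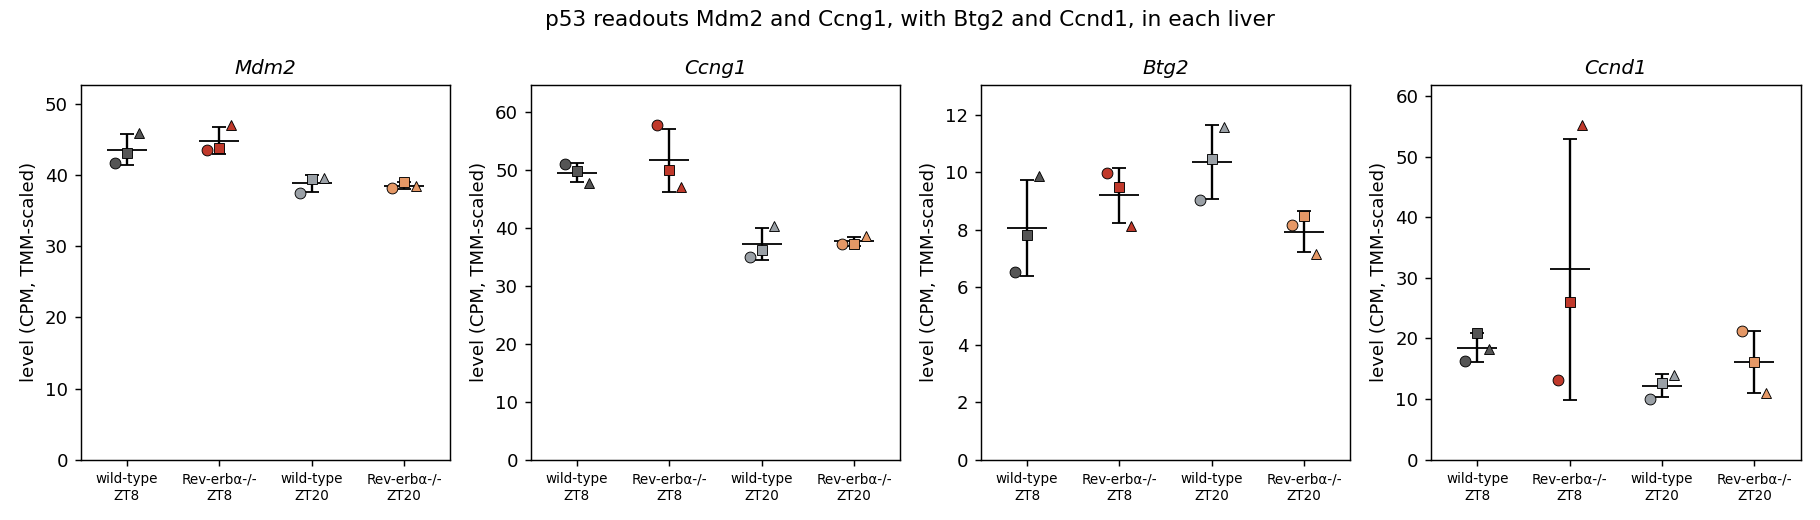
CPM of *Mdm2*, *Ccng1*, *Btg2* and *Ccnd1* in each library (circle, square and triangle for replicates 1, 2 and 3) in the 4 groups, with bars for the mean and SD of 3. *Mdm2* and *Ccng1* overlap between genotypes and are lower at ZT20, and *Ccnd1* spreads from 13.1 to 55.2 CPM among *Rev-erbα*-/- livers at ZT8.

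Of 25 further p53 targets, 23 were tested. At ZT8, 1 rose in *Rev-erbα*-/- and 0 fell, with a median log2 fold change of 0.14 against 0.00 over all genes (7 passed at an unadjusted p below 0.05, and DESeq2 called 4). The gene that rose was *Ei24*, which encodes a protein of the endoplasmic reticulum, at 148 ± 7.7 CPM in wild-type and 196 ± 10.8 CPM in *Rev-erbα*-/- (log2 fold change 0.40, SE 0.07, adjusted p = 0.00265, edgeR; named after its values were seen). The count of 1 was 0 without both libraries high in acute phase transcripts and 5, 2 and 3 without wild-type replicate 1, wild-type replicate 3 or *Rev-erbα*-/- replicate 3 at ZT8. At ZT20, 0 were called in either direction (2 at an unadjusted p below 0.05 and 0 with DESeq2), with a median of 0.03. *Bbc3*, which encodes the proapoptotic protein PUMA, was at 2.92 ± 1.26 CPM in wild-type and 5.01 ± 1.28 CPM in *Rev-erbα*-/- at ZT8, which missed the threshold (adjusted p = 0.0891, edgeR). It rose to ZT20 in wild-type by 2.15 on the log2 scale (SE 0.24, adjusted p = 2.6e-05, edgeR) and in *Rev-erbα*-/- by 1.05 (adjusted p = 0.00731). The difference between these rises did not pass the interaction test.

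*Fas*, which encodes a death receptor, rose with time in wild-type (12.2 ± 1.44 to 19.7 ± 1.15 CPM, log2 fold change 0.69, adjusted p = 0.000296, edgeR), and its genotype effect differed between the times (difference 0.57, SE 0.16, adjusted p = 0.0435). Over all tested genes, 13.8% rose and 13.9% fell with time in wild-type, and 8.79% rose and 8.67% fell in *Rev-erbα*-/-. Of the 23 targets, 2 rose and 3 fell in wild-type, and 1 rose and 4 fell in *Rev-erbα*-/-. Among those that fell were *Gtse1*, a regulator of p53 in the late cell cycle (2.27 ± 0.207 to 0.45 ± 0.308 CPM in wild-type, adjusted p = 0.000347, edgeR), and the receptor gene *Eda2r* (1.45 ± 0.252 to 0.223 ± 0.0982 CPM in *Rev-erbα*-/-, adjusted p = 0.000784, with 4 to 8 reads per library at ZT20). Of 7 tested genes of p53 itself and its regulators, 0 were called between genotypes at either time or between times (0 at an unadjusted p below 0.05 at ZT8 and ZT20 between genotypes and 2 between times in each genotype, and 0 with DESeq2). Of all 14488 tested genes, 5532 passed an unadjusted p below 0.05 between times in wild-type and 4415 in *Rev-erbα*-/-. *Trp53*, which encodes p53 and was named after its values were seen, was at 14.4 ± 1.6 CPM in wild-type and 16.2 ± 0.795 CPM in *Rev-erbα*-/- at ZT8.

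Of the *Gadd45* genes, *Gadd45g* varied most. It was at 1.23, 43.7 and 58.0 CPM in wild-type at ZT8 and at 4.36, 3.56 and 3.72 CPM in *Rev-erbα*-/-. At ZT20, it was at 4.84, 4.51 and 6.17 CPM in wild-type and at 25.5, 16.0 and 7.20 CPM in *Rev-erbα*-/-. Wild-type livers at ZT8 thus held both the lowest and the highest value of all 12 libraries, and at ZT20 all *Rev-erbα*-/- livers stood above all wild-type livers. The genotype difference missed the threshold at ZT8 (log2 fold change −3.13, SE 1.08, adjusted p = 0.124, edgeR) and at ZT20 (1.65, SE 1.03, adjusted p = 0.544).

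The high wild-type libraries at ZT8, replicates 2 and 3, were those with high acute phase transcripts. *Saa1*, which encodes the secreted acute phase protein serum amyloid A1, was at 60.8, 4972 and 6489 CPM in wild-type at ZT8 and between 21.2 and 96.8 CPM in all other groups. The 15 acute phase genes summed to 19881, 43288 and 53560 CPM in these wild-type livers, to between 18974 and 23340 CPM in *Rev-erbα*-/- at ZT8, to between 21956 and 24749 CPM in wild-type at ZT20 and to between 20078 and 24581 CPM in *Rev-erbα*-/- at ZT20. Of the 15, 8 were lower in *Rev-erbα*-/- at ZT8 and 0 at ZT20 (0 at an unadjusted p below 0.05 and 0 with DESeq2). The count of 8 fell to 0 without any one of wild-type replicates 2 and 3 and the *Rev-erbα*-/- libraries at ZT8, and was between 2 and 6 without any one of the libraries at ZT20. The 6 markers of Kupffer cells and macrophages moved with them, with sums of 342, 443 and 536 CPM in wild-type and 300 to 372 CPM in *Rev-erbα*-/- at ZT8, 294 to 365 CPM in wild-type at ZT20 and 337 to 402 CPM in *Rev-erbα*-/- at ZT20, and with no marker at 0. Other marker sums shifted over the 3 wild-type livers at ZT8 as well. The cholangiocyte sum rose (37.9, 63.2 and 94.7 CPM), as did the scarce lymphocyte (11.3, 12.4 and 14.6 CPM) and neutrophil (3.34, 4.58 and 5.74 CPM) sums. The hepatocyte sum (80277, 63799 and 57802 CPM) and the erythroid sum (246, 166 and 112 CPM) fell. Single genes dominated some of these sums. In these livers the cholangiocyte marker *Spp1* spanned 30.4 to 89.9 CPM, while *Sox9* spanned 3.66 to 5.17 CPM. Of the hepatocyte markers, *Alb* spanned 33751 to 52476 CPM and *Ttr* 3686 to 6827 CPM. *Apoa1* (6234 to 6471 CPM), *Cps1* (3743 to 4134 CPM) and *Cyp2e1* (10080 to 10498 CPM) varied less. The part of the acute phase genes and of these markers in the *Gadd45g* values was not tested. Without both libraries, which leaves replicate 1 as the only wild-type library at ZT8, the *Gadd45g* log2 fold change was 1.65, and without wild-type replicate 1 it was −3.71 (adjusted p = 0.0024, edgeR). With DESeq2 on all libraries it was −3.15 (adjusted p = 0.0127).

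*Gadd45a* was at 5.41, 4.63 and 3.00 CPM in wild-type and 2.60, 3.00 and 2.40 CPM in *Rev-erbα*-/- at ZT8, and at 2.47, 2.92 and 2.73 CPM against 3.44, 2.49 and 2.18 CPM at ZT20. Wild-type replicates 1 and 2 at ZT8 were the highest, and replicate 3 lay among the other groups. The genotype difference at ZT8 was close to the threshold (log2 fold change −0.72, SE 0.22, 95% interval −1.19 to −0.24, adjusted p = 0.0624, edgeR). It passed with DESeq2 (adjusted p = 0.0458), without the low replicate 3 (−0.92, adjusted p = 0.0175, edgeR) and without *Rev-erbα*-/- replicate 1 at ZT20 (adjusted p = 0.0483), and its log2 fold change was −1.03 without both libraries high in acute phase transcripts, where only replicate 1, the highest value, stands for wild-type at ZT8. The fall from ZT8 to ZT20 in wild-type passed (−0.69, SE 0.22, adjusted p = 0.0297, edgeR), but not without replicate 1 (−0.51, adjusted p = 0.118) or replicate 2 at ZT8 (adjusted p = 0.0916), nor without any one of the wild-type libraries at ZT20 (adjusted p = 0.0598 to 0.0985). The antisense partner E230016M11Rik carried 23 to 122 counts of its own.

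*Gadd45b* was near the limit of detection, with 0.126 to 1.16 CPM over all libraries, and reached the level of the low-count filter (0.447 CPM) in 8 of 12 libraries. It was at 0.318, 0.448 and 0.458 CPM in wild-type at ZT8 and at 1.07, 0.619 and 1.16 CPM in wild-type at ZT20, without overlap. This difference of 1.22 on the log2 scale missed the threshold (SE 0.46, adjusted p = 0.0625, edgeR), and passed in a fit on the wild-type libraries alone (adjusted p = 0.0327). The genotype differences were −0.08 at ZT8 and −0.84 at ZT20 (SE 0.44, adjusted p = 0.404, edgeR), with wide intervals of −1.24 to 1.09 and −1.77 to 0.09.

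**Figure D4:**
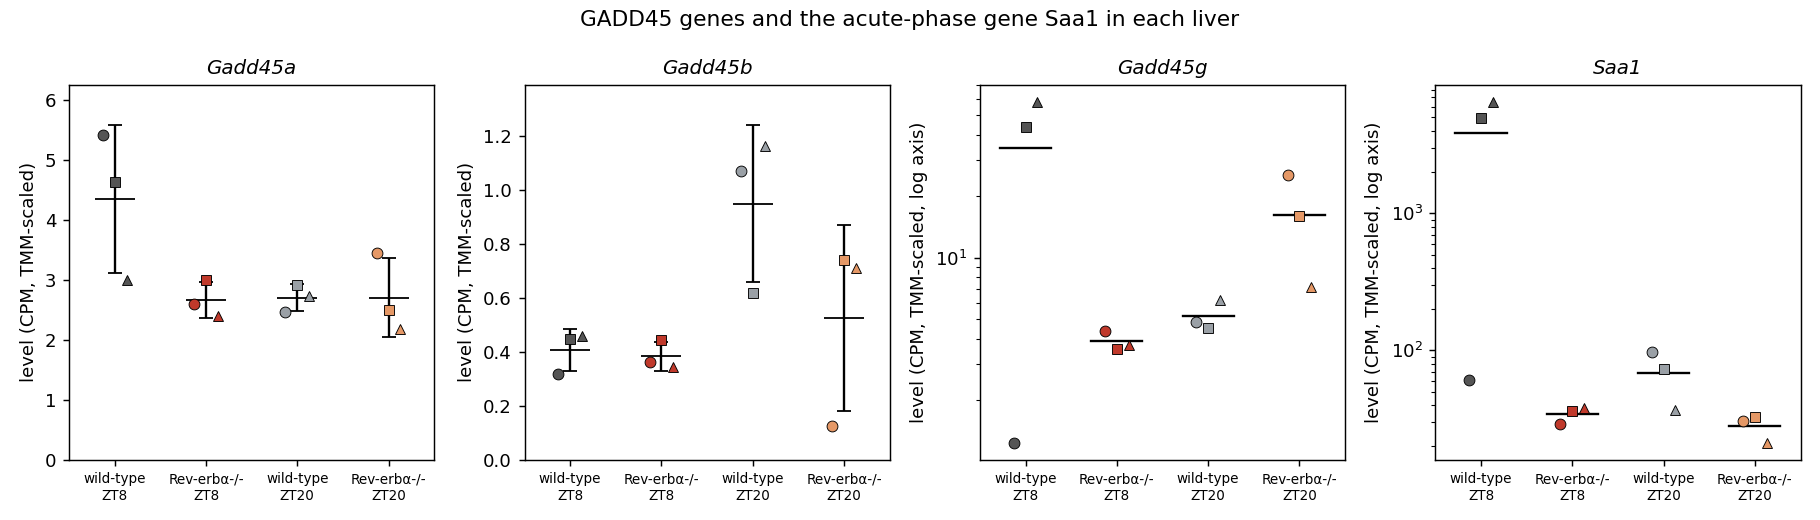
CPM of *Gadd45a* and *Gadd45b* on linear axes, with bars for the mean and SD of 3, and of *Gadd45g* and the acute phase gene *Saa1* on log axes, with bars for the mean, in each library of the 4 groups (circle, square and triangle for replicates 1, 2 and 3). Wild-type replicates 2 and 3 at ZT8 are high for both *Gadd45g* (43.7 and 58.0 CPM) and *Saa1* (4972 and 6489 CPM).

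*Ccnd1* was at 16.3, 21.0 and 18.2 CPM in wild-type and 13.1, 25.9 and 55.2 CPM in *Rev-erbα*-/- at ZT8, so that the knockout livers spread on both sides of the wild-type range. At ZT20, it was at 10.1, 12.7 and 13.9 CPM in wild-type and 21.2, 16.2 and 10.9 CPM in *Rev-erbα*-/-, which overlapped. Neither genotype difference passed (log2 fold change 0.77, SE 0.47, adjusted p = 0.367 at ZT8, edgeR, and 0.40, SE 0.48, adjusted p = 0.805 at ZT20). Wild-type liver at ZT20 lay below wild-type at ZT8 without overlap, which missed the threshold in the fit on all libraries (−0.59, SE 0.48, adjusted p = 0.418, edgeR) and passed in a fit on the 6 wild-type libraries (−0.59, adjusted p = 0.00945). Without *Rev-erbα*-/- replicate 1 at ZT8, the change with time in that genotype passed (−1.33, adjusted p = 0.0427, edgeR). The sum of the 15 proliferation markers in the 3 *Rev-erbα*-/- livers at ZT8 was 80.0, 90.7 and 109 CPM, in the same order as *Ccnd1*. In wild-type at ZT8 the sums did not follow that order (79.9, 69.6 and 67.8 CPM). They did at ZT20, with 64.2, 67.1 and 80.5 CPM in wild-type and 135, 108 and 92.8 CPM in *Rev-erbα*-/-. The part of these markers in the *Ccnd1* values was not tested.

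Compared per kilobase of exon, the order of the mean levels differed between groups. In wild-type liver at ZT8, *Gadd45g* (29.3 CPM per kilobase, from 2 high libraries), *Ccng1* (14.1) and *Mdm2* (8.57) were the highest, *Wee1* stood at 4.19 and *Cdkn1a* at 0.699, and *Gadd45b* was the lowest (0.257). In *Rev-erbα*-/- liver at ZT8, *Cdkn1a* reached 9.69 CPM per kilobase, below *Ccng1* (14.7) and above *Mdm2* (8.82), and *Wee1* stood at 1.66. In wild-type liver at ZT20, *Cdkn1a* led all members with 13.5 CPM per kilobase. A mean level per length assumes that all annotated exons are used.

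Among the genes whose log2 CPM followed *Cdkn1a* most closely over the 12 libraries were *Slc45a3* (Pearson r = 0.994), *Nfil3* (0.983), *Ddc* (0.982) and *Mab21l3* (0.98). *Nfil3*, which encodes a transcriptional repressor of the circadian system, was at 12.1 ± 0.733 CPM in wild-type at ZT8, 59.5 ± 0.86 in *Rev-erbα*-/- at ZT8, 56.6 ± 3.68 in wild-type at ZT20 and 49.7 ± 1.21 in *Rev-erbα*-/- at ZT20. *Slc45a3*, a member of the solute carrier family, was at 14.5 ± 0.618, 59.8 ± 4.57, 76.8 ± 11 and 57.3 ± 8.58 CPM in the same order. All 4 had their lowest mean in wild-type liver at ZT8, although *Mab21l3* stayed below 1 CPM in every group mean. The genes most like *Wee1* were *Mmp15* (r = 0.966), *Tbc1d16* (0.957), *Zcchc14* (0.95), *Ihh* (0.943) and *Mast3* (0.941). *Mmp15*, which encodes a membrane-bound metalloproteinase, was at 67.5 ± 5.29, 35.7 ± 4.64, 40.8 ± 1.21 and 40.9 ± 4.03 CPM, and *Ihh*, which encodes the ligand Indian hedgehog, at 7.39 ± 0.418, 3.24 ± 0.517, 3 ± 0.529 and 3.68 ± 0.135 CPM, again in that order. These were the closest of all tested genes, and the libraries share groups, so that the correlations are descriptions.

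Of 4 tested CDK inhibitors besides *Cdkn1a*, 0 were called between genotypes at either time (1 at ZT8 and 0 at ZT20 at an unadjusted p below 0.05, 0 with DESeq2). *Cdkn2c*, which encodes the CDK4 and CDK6 inhibitor p18, fell with time in wild-type (5.02 ± 1.46 to 3.05 ± 0.533 CPM, adjusted p = 0.0257, edgeR) and in *Rev-erbα*-/- (3.95 ± 0.572 to 2.33 ± 0.33 CPM, adjusted p = 0.0311). Of 7 tested genes of mitotic entry, the step that *Wee1* controls, 0 were called in any of the 5 comparisons (at an unadjusted p below 0.05, 2 at ZT8 and 1 at ZT20 between genotypes and 2 between times in wild-type, and 0 with DESeq2), with a median log2 fold change of 0.44 at ZT8. Their transcripts were scarce, with sums over 10 genes of 8.47 to 16.2 CPM. Of all 14488 tested genes, 5532 passed an unadjusted p below 0.05 between times in wild-type. Between genotypes, 23.5% of all genes did at ZT8 and 14.6% at ZT20.

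Among 14 genes of the G1 to S machinery, 2 rose and 1 fell in *Rev-erbα*-/- at ZT8. *E2f2* (2.46 ± 0.637 to 4.66 ± 0.589 CPM, log2 fold change 0.91, adjusted p = 0.00719, edgeR) and *E2f3* (12.6 ± 0.682 to 16 ± 0.385 CPM, 0.34, adjusted p = 0.0319), both transcription factors of S phase genes, were higher, and *Rbl2*, which encodes a relative of the retinoblastoma protein, was lower (62.6 ± 4 to 51 ± 0.988 CPM, −0.30, adjusted p = 0.0264). Of these 3, 1 was left without wild-type replicate 3 or *Rev-erbα*-/- replicate 2 or 3 at ZT8, and 0 without both libraries high in acute phase transcripts. At ZT20, 2 of the 14 rose, *Cdk6* (5.09 ± 0.643 to 7.79 ± 0.954 CPM) and *E2f1* (2.22 ± 0.273 to 3.90 ± 0.1 CPM), and 0 fell. Both calls were lost without any one of the wild-type libraries or *Rev-erbα*-/- replicate 1 or 2 at ZT20, and 1 was lost without *Rev-erbα*-/- replicate 3 at ZT20 or replicate 2 at ZT8. *Ccne1*, which encodes cyclin E1, changed with time in both genotypes, from 5.23 ± 2.06 to 0.707 ± 0.0412 CPM in wild-type (adjusted p = 0.000252, edgeR) and from 5.42 ± 2.07 to 0.801 ± 0.396 CPM in *Rev-erbα*-/- (adjusted p = 0.000609).

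Of 4 tested relatives of *Btg2* and *Ccng1*, *Tob2*, which encodes an antiproliferative protein, fell in *Rev-erbα*-/- at ZT8 (71.8 ± 3.68 to 56.1 ± 3.75 CPM, adjusted p = 0.0484, edgeR) and 0 were called at ZT20 (3 at an unadjusted p below 0.05, 1 with DESeq2). The call on *Tob2* was not kept in most fits that left out a library: the list's count was 0 without wild-type replicate 2 or 3 or any *Rev-erbα*-/- library at ZT8, and without replicate 2 of either genotype at ZT20. *Btg1*, a close relative of *Btg2*, was at 20.4 ± 2.2 CPM in wild-type and 26 ± 2.38 CPM in *Rev-erbα*-/- at ZT8, and at 75.2 ± 10.4 and 58.4 ± 4.26 CPM at ZT20. Its genotype effects pointed in opposite directions without passing, and their difference passed (0.71, SE 0.15, adjusted p = 0.0117, edgeR). *Ccng2*, which encodes cyclin G2, rose with time by 1.65 in wild-type (8.3 ± 1.09 to 26 ± 5.98 CPM, adjusted p = 9.8e-06, edgeR) and by 0.85 in *Rev-erbα*-/- (adjusted p = 0.00356), whereas *Ccng1* fell in both. The difference between the rises of *Ccng2* did not pass the interaction test. *Tob1* fell with time in wild-type (119 ± 31 to 66 ± 9.37 CPM, adjusted p = 0.0303, edgeR).

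The 15 proliferation markers were all tested. At ZT8, 1 rose in *Rev-erbα*-/-, *Mcm7*, which encodes a subunit of the replicative helicase (6.05 ± 0.539 to 9.71 ± 0.63 CPM, log2 fold change 0.68, adjusted p = 0.00359, edgeR), and the median was 0.53. At ZT20, 7 rose and 0 fell, with a median log2 fold change of 0.88 against 0.00 over all genes. The helicase subunit gene *Mcm6* went from 0.977, 0.929 and 1.92 CPM in wild-type to 17.2, 10.2 and 6.98 CPM (log2 fold change 3.16, SE 0.42, adjusted p = 0.00213, edgeR), and *Rrm2*, which encodes a subunit of ribonucleotide reductase, from 1.98 ± 0.422 to 6.63 ± 0.672 CPM (1.75, adjusted p = 0.00321). The markers summed to 64.2 to 80.5 CPM in wild-type and 92.8 to 135 CPM in *Rev-erbα*-/- at ZT20, where the log2 fold changes of *Cdkn1a* and *Wee1* were −0.66 and 0.04, neither past the threshold. The count of 7 fell to 2 without replicate 1 or 2 of the wild-type or *Rev-erbα*-/- replicate 1 at ZT20, and to 3 without wild-type replicate 2 at ZT8 or *Rev-erbα*-/- replicate 2 at ZT20. It was 4 without *Rev-erbα*-/- replicate 2 at ZT8 or wild-type replicate 3 at ZT20.

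**Figure D5:**
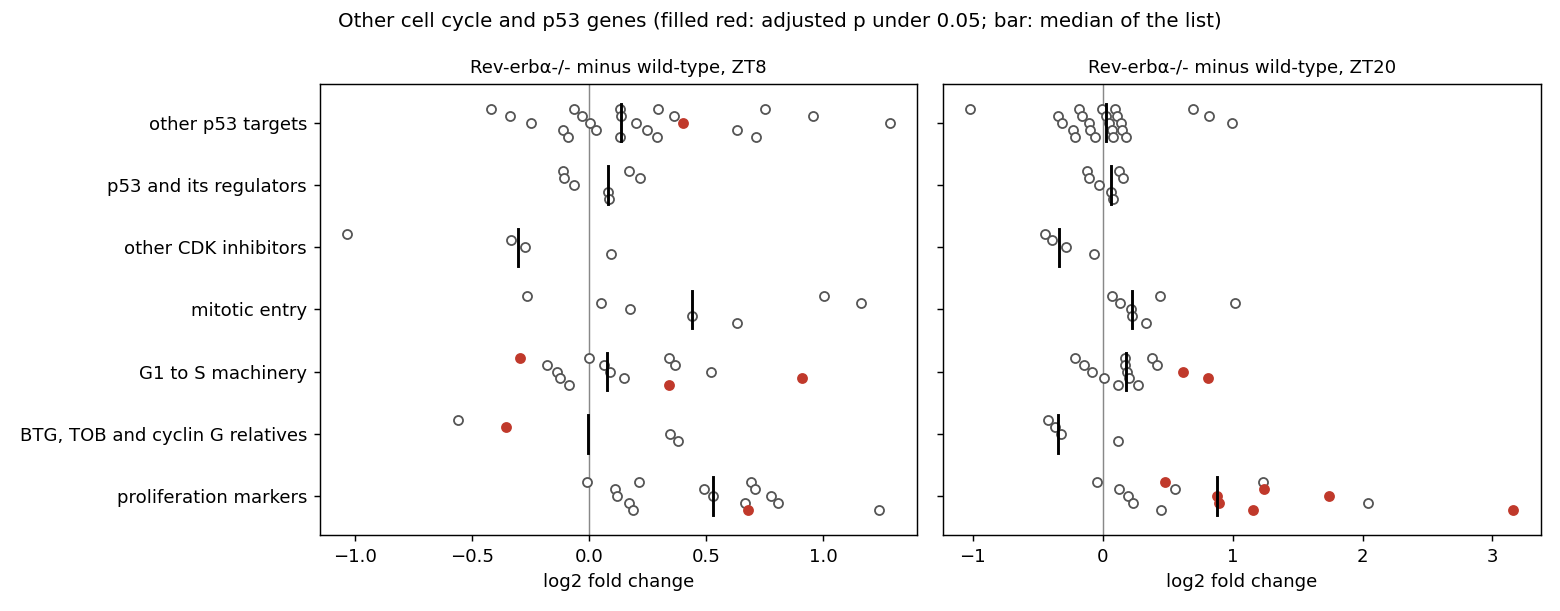
Log2 fold changes between genotypes (*Rev-erbα*-/- over wild-type) for each tested gene of 7 lists at ZT8 (left) and ZT20 (right), with a bar for the median of each list and filled red points for genes past an adjusted p of 0.05. The proliferation markers have medians of 0.53 at ZT8 and 0.88 at ZT20, and the other p53 targets have medians of 0.14 and 0.03.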

How the data were processed

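The authors deposited raw counts for each of the 12 libraries, that is whole numbers of reads per gene symbol for 38926 symbols and 5 summary lines. They mapped poly(A) RNA-seq reads of up to 75 bases to mm10 with TopHat and counted uniquely aligned reads with HTSeq (union mode, minimum quality 10, strand ignored). SAMtools and DESeq2 1.6.3 are also named in the submitters' processing notes. Reads that align to several places, or to more than 1 gene, are not counted, which lowers genes with close copies or overlapping partners. The summary lines stayed out of library sizes and tests.

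From the counts, genes were filtered with filterByExpr (minimum count 10), libraries were scaled by TMM, and a robust quasi-likelihood model with 4 group means was fitted over all 12 libraries in edgeR 4.0.16 (R 4.3.3). The biological coefficient of variation was 0.123. The 5 contrasts were genotype at ZT8 and at ZT20, their difference, and time within each genotype, each adjusted by the Benjamini-Hochberg method over 14488 genes, with a threshold of 0.05. SE was taken as the log2 fold change over the square root of F, and intervals are 95%. The fit was also run on counts simulated from its own estimate of the spread. Such counts do not show how it behaves with libraries that stand apart. The labels name replicates without saying that each is a separate animal, and p-values measure the spread between these libraries.

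The 9 members and all lists were chosen with earlier results of these data known. Besides the members, the genes named are up to 4 called genes with the smallest p-value of each list in any contrast, the 5 genes most like *Cdkn1a* and the 5 most like *Wee1* (Pearson r of log2 CPM, prior count 2), *Nr1d1* and markers that move with a result. Of the genes most like *Cdkn1a*, 1 is not reported here. Other genes were named after their values were seen. Lists are described by counts and medians. Overlap was read from the libraries of each group, and the share of all tested genes without overlap was not counted. Alternatives were DESeq2 1.42.0, size factors, no filter, at least 10 counts in every library, a fit on the 6 libraries compared, a replicate block, an adjusted p of 0.01 and each library left out. Leaving out both wild-type libraries at ZT8 with high acute phase transcripts was added after seeing the data. Motifs were searched on both strands of RefSeq windows (GRCm38.p6).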

Additional observations from a re-analysis of the deposited data

Results flagged for a closer look

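The effect of genotype on *Cdkn1a* and on *Wee1* differed between the time points. For *Cdkn1a*, the log2 fold change of *Rev-erbα*-/- over wild-type was higher at ZT8 than at ZT20 by 4.44 (SE 0.31, adjusted p = 1.34e-05, edgeR interaction test), from 3.78 at ZT8 and −0.66 at ZT20. At ZT8 all 3 *Rev-erbα*-/- livers lay above all 3 wild-type livers, and at ZT20 all 3 lay below. The genotype difference of *Cdkn1a* at ZT20 taken alone missed the threshold in edgeR. For *Wee1*, the difference was −1.37 (SE 0.24, adjusted p = 0.00318, edgeR interaction test), from −1.33 and 0.04. Both differences passed in each of the 19 alternative fits, of which 1 holds a single wild-type library at ZT8, with ranges of 4.25 to 4.60 and −1.68 to −1.19.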

How the results depend on the processing

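For *Cdkn1a* and *Wee1*, the calls at ZT8, in the interaction and between times in wild-type kept their direction and passed in all 20 alternatives (19 for the interaction, which has no fit on 6 libraries). At ZT8 the log2 fold changes ranged from 3.60 to 3.90 and from −1.64 to −1.15. *Ccng1* between times passed in both genotypes in all 20. Counts of called genes at an adjusted p of 0.01 were 472 at ZT8, 223 at ZT20, 357 for the interaction, 2343 between times in wild-type and 1231 in *Rev-erbα*-/-. They were 769 at ZT8 with only 6 libraries, and 346 at ZT8, 493 for the interaction and 1795 between times in wild-type without both libraries high in acute phase transcripts, a fit that leaves 1 wild-type library at ZT8 and assumes that it varies like the other groups. With 1 library left out, they ranged from 542 to 1811 at ZT8, 239 to 656 at ZT20, 493 to 1260 for the interaction, 2865 to 4195 in wild-type and 1566 to 2847 in *Rev-erbα*-/-. Members called then ranged from 2 to 3 at ZT8, 0 to 0 at ZT20, 2 to 3 for the interaction, 3 to 5 in wild-type and 1 to 3 in *Rev-erbα*-/-. DESeq2 called 4 members at ZT8, with *Gadd45a* and *Gadd45g* added, and 1 at ZT20. In *Rev-erbα*-/- between times, 1 member was called with no filter, with 6 libraries and at 0.01. The cause of these shifts was not tested.

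The replicate block called 1 member at ZT20, *Cdkn1a* (−0.66, adjusted p = 0.0166, edgeR), and 479 genes, 1210 genes at ZT8, 831 for the interaction, 3889 in wild-type and 2399 in *Rev-erbα*-/- between times, and changed no other call on a member. Over all tested genes, libraries with the same number did not deviate together on average (mean correlation −0.0144 over 18 pairs, range −0.0832 to 0.0738, against 0.00712 over 36 other pairs). Of the 12 libraries, 1 correlated best with its own number. Correlations over all genes cannot show whether single genes vary with the number. *Cdkn1a* rose from replicate 1 to replicate 3 in *Rev-erbα*-/- at ZT8 and in both genotypes at ZT20, and fell in wild-type at ZT8. The labels do not say whether a number marks a batch.

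Signs reversed for *Gadd45g*, for the *Ccnd1* interaction and for values nearer to 0. Without both libraries high in acute phase transcripts, *Gadd45g* was 1.65 at ZT8 and 2.06 between times in wild-type, *Gadd45b* was 0.25 at ZT8, and the *Ccng1* interaction was −0.00741. *Gadd45a* at ZT20 was −0.00284 with DESeq2, −0.00284 with size factors, −0.0011 with 6 libraries and −0.0217 with the replicate block. With 1 library left out, the ranges that crossed 0 were *Gadd45b* at ZT8 from −0.25 to 0.015, *Ccng1* at ZT8 from −0.033 to 0.12, *Gadd45a* at ZT20 from −0.21 to 0.13, *Ccng1* at ZT20 from −0.024 to 0.087, *Wee1* at ZT20 from −0.00448 to 0.084, *Mdm2* at ZT20 from −0.037 to 0.00851, *Ccng1* in the interaction from −0.055 to 0.10, *Ccnd1* in the interaction from −0.32 to 0.73, *Wee1* between times in *Rev-erbα*-/- from −0.024 to 0.47, *Cdkn1a* between times in *Rev-erbα*-/- from −0.33 to 0.00804 and *Gadd45a* between times in *Rev-erbα*-/- from −0.18 to 0.15. Depth limits *Gadd45b*, whose 3-count level of 0.117 to 0.167 CPM lies close to its values. Symbol sums do not show isoforms, and groups of 3 leave wide intervals for *Gadd45g* and *Ccnd1*.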

Other observations

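*Myc* was the gene most like *Gadd45g* over the 12 libraries (Pearson r of log2 CPM 0.93, chosen after its values were seen). *Myc*, which encodes a transcription factor of growth, was at 3.10, 25.1 and 40.4 CPM in wild-type and 6.75, 5.67 and 5.78 CPM in *Rev-erbα*-/- at ZT8, and at 4.23, 3.72 and 3.58 CPM against 30.9, 17.3 and 8.36 CPM at ZT20. The order of the 3 *Rev-erbα*-/- livers at ZT20 was the same as for *Gadd45g*. *Socs3*, which encodes a feedback inhibitor of cytokine signaling, was at 17.0, 11.5 and 5.07 CPM in these livers and at 5.40, 6.72 and 6.26 CPM in wild-type at ZT20. *Saa1* was between 21.2 and 32.8 CPM there, in contrast to the wild-type livers at ZT8 in which *Gadd45g* and *Saa1* were both high.

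Of 14 tested immediate early genes, 1 rose and 1 fell in *Rev-erbα*-/- at ZT8. *Atf3*, which encodes a stress-induced transcription factor, rose from 0.992 ± 0.0933 to 2.63 ± 0.559 CPM (log2 fold change 1.40, adjusted p = 0.00654, edgeR), and *Junb* fell from 19.1 ± 3.54 to 10.8 ± 1.14 CPM. At ZT20, edgeR called 1, *Ier2*, lower in *Rev-erbα*-/- (22.6 ± 3.67 to 16 ± 1.29 CPM), while 3 passed at an unadjusted p below 0.05 and DESeq2 called 3. At ZT8, the count of 2 was 5 without wild-type replicate 1 and 1 without *Rev-erbα*-/- replicate 2, and at ZT20 the count of 1 was 0 in 9 of the 12 fits that left out a library. Over all tested genes, 13.9% fell from ZT8 to ZT20 in wild-type and 8.67% in *Rev-erbα*-/-. Of the 14 immediate early genes, 3 fell in wild-type and 4 in *Rev-erbα*-/-. Among them was *Dusp1*, which encodes a phosphatase of stress kinases (38.9 ± 2.65 to 18.8 ± 6.1 CPM in *Rev-erbα*-/-, adjusted p = 0.00243, edgeR). *Egr1* was at 4.05, 35.3 and 91.0 CPM in wild-type at ZT20 and between 1.42 and 3.47 CPM in *Rev-erbα*-/- at ZT20 (named after its values were seen).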
